A study of Bos taurus with 22 samples.

Results

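PDK4 (ENSBTAG00000014069) and PM20D1 (ENSBTAG00000008734), 2 of the 24616 genes in the count table, were followed in the subcutaneous adipose tissue of 22 beef steers. They were selected on the study's own calls from these same counts, PDK4 as up-regulated in the feed-efficient steers of KC and PM20D1 in those of ANG (breeds as below). Residual feed intake adjusted for backfat (RFIfat, in kg) is the feed a steer ate minus the feed expected from its growth and fatness, so a low value marks an efficient animal. Steers with the highest (H-RFI) and the lowest RFIfat (L-RFI) were sequenced from Angus (ANG, 4 and 4), Charolais (CHAR, 3 and 3) and Kinsella Composite (KC, 4 and 4), the last a crossbred herd of Hereford and Angus background. RFIfat ran from 0.75 to 1.64 kg in H-RFI and from -1.13 to -0.75 kg in L-RFI steers of ANG. It ran from 0.69 to 1.10 kg and from -1.03 to -0.96 kg in CHAR, and from 0.54 to 2.03 kg and from -1.77 to -0.80 kg in KC. All groups were males castrated for beef, kept in a feedlot on 1 finishing diet and sampled after slaughter, so H-RFI and L-RFI are ends of a natural range and not a treatment.

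PDK4 codes for a kinase of the mitochondrial matrix that phosphorylates the pyruvate dehydrogenase complex and so slows the entry of carbohydrate carbon into the citric acid cycle. Its transcript is well known to rise with fasting, fatty acids and glucocorticoids and to fall with insulin, and adipose tissue is among the tissues where this has been described. PM20D1 codes for a secreted enzyme of the M20 peptidase family that joins fatty acids to amino acids and also splits these N-acyl amino acids, lipids that were described to raise respiration in fat and muscle cells.

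Both genes were counted in every steer. PDK4 had 2749 to 23030 counts per steer, which puts the counting error of a single value between 0.659% and 1.91%. PM20D1 had 31 to 231 counts, a counting error of 6.58% to 18%. Between 8033008 and 12426133 reads per steer lay on genes, so that a floor of 3 counts equals 0.241 to 0.373 CPM (the count of a gene scaled to the total on genes). Levels below are TMM-normalized CPM (CPM scaled by the trimmed mean of M-values). The levels of these 2 genes cannot be compared with each other, since gene lengths were not used here. The labels name adipocytes as the cell type, but the samples are pieces of tissue, and in such bulk samples fewer cells of a type and less RNA per cell cannot be told apart.

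Over the 22 steers PDK4 ranged from 264 to 2541 CPM (median 777), a 9.63-fold range. In H-RFI steers of ANG it was at 354 CPM in F21, 556 in F32, 608 in F28 and 793 in F20. In L-RFI steers of ANG it was at 575 CPM in F23, 800 in F24, 851 in F25 and 1056 in F18. The groups overlapped through F23 and F20, although 3 of the 4 L-RFI steers lay above every H-RFI steer of their breed. Of these 3, F24 at 800 CPM was close to F20 at 793 CPM, with counting errors of 1.22% and 1.26%.

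All CHAR steers but F48 were above the median of the 22 steers in PDK4. Among H-RFI steers of CHAR, F36 was at 1603 and F43 at 1739 CPM, while F48 was at 483. Among L-RFI steers, F47 was at 924, F33 at 1192 and F46 at 1234 CPM. The L-RFI steers thus lay together between the low and the high H-RFI steers, all 3 of them below the H-RFI median.

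In KC, whose L-RFI steers were the reason for taking the gene, PDK4 was at 264 CPM in F1, 583 in F9, 637 in F7 and 672 in F8 of the H-RFI group. L-RFI steers were at 634 CPM in F16, 761 in F14, 1135 in F11 and 2541 in F10. In this breed 3 of the 4 L-RFI steers were above every H-RFI steer, and F10 held the highest level of PDK4 in the study. Nothing is read from this count, because it belongs to the contrast that selected the gene. For 10.9% of the 13725 genes tested in KC the groups did not overlap at all, and PDK4 was not among these.

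PM20D1 ranged from 3.41 to 21.8 CPM (median 9.36), a 6.41-fold range. In ANG, whose L-RFI steers were the reason for taking it, H-RFI steers were at 4.20 CPM in F28, 5.49 in F32, 5.56 in F20 and 6.99 in F21. L-RFI steers were at 9.67 CPM in F23, 9.78 in F25, 14.1 in F24 and 14.4 in F18. These groups did not overlap, as was the case for 2.94% of the 13613 genes tested in ANG, and nothing is read from this separation because it belongs to the contrast that selected the gene.

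In CHAR, PM20D1 was at 7.73 CPM in F43, 8.16 in F48 and 15.8 in F36 of the H-RFI group, and at 11.5 in F33, 12.5 in F47 and 17.1 in F46 of the L-RFI group. All 3 L-RFI steers were above the H-RFI median, with F36 between them. In KC, H-RFI steers were at 3.41 CPM in F7, 5.95 in F8, 9.22 in F1 and 13.6 in F9, and L-RFI steers at 3.60 in F16, 8.16 in F10, 9.50 in F14 and 21.8 in F11. The lowest and the highest steer of each KC group were thus far apart, and only F11 lay above every H-RFI steer.

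**Figure D1:**
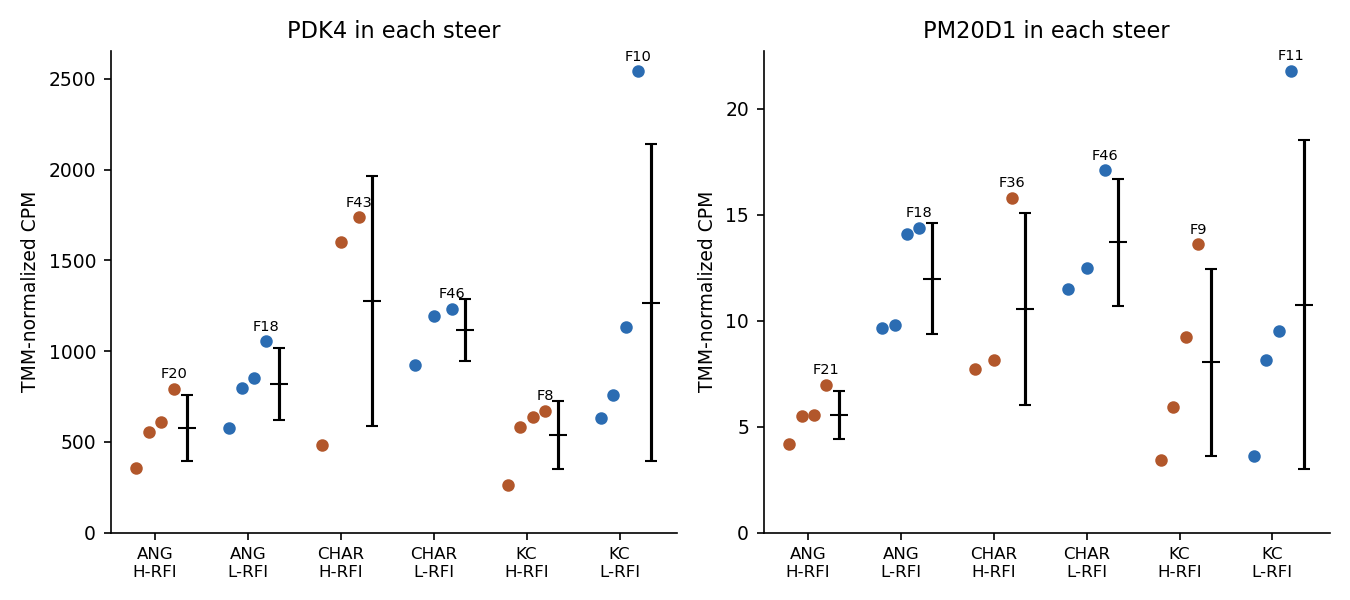
TMM-normalized CPM (vertical axis, linear) of PDK4 (left) and PM20D1 (right) in each of the 22 steers, by breed and RFI group (H-RFI brown, L-RFI blue), with the mean and SD of each group as a bar beside the points and the highest steer named. In ANG, H-RFI steers reached up to 6.99 CPM of PM20D1 and L-RFI steers began at 9.67 CPM. Nothing is read from this gap, because this contrast had selected the gene. Groups did not overlap for 2.94% of the 13613 genes tested in ANG. F10 stood at 2541 CPM of PDK4.

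By group means, the order of PDK4 from low to high was KC H-RFI (539 ± 187 CPM, SD, n = 4), ANG H-RFI (578 ± 181, n = 4), ANG L-RFI (820 ± 197, n = 4), CHAR L-RFI (1117 ± 168, n = 3), KC L-RFI (1268 ± 875, n = 4) and CHAR H-RFI (1275 ± 689, n = 3). Each of the 5 neighbouring pairs in this order overlapped in its ranges. For PM20D1 the order was ANG H-RFI (5.56 ± 1.14 CPM, SD, n = 4), KC H-RFI (8.04 ± 4.40, n = 4), CHAR H-RFI (10.6 ± 4.52, n = 3), KC L-RFI (10.8 ± 7.79, n = 4), ANG L-RFI (12.0 ± 2.63, n = 4) and CHAR L-RFI (13.7 ± 3.01, n = 3). Again all neighbours overlapped, so the order of the means separates no neighbouring pair.

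Steers of 1 group differed in both genes more than in most. The biological coefficient of variation within groups was 39.4% for PDK4, where genes with as many counts had a trend value of 19.5%, and 40% for PM20D1 against 23.9%. This put the spread of PDK4 above that of 90.8% and the spread of PM20D1 above that of 91.1% of the 14048 genes tested across breeds. The counting error of every single value was smaller than this spread.

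The contrasts that selected the genes are given as a description. PDK4 had a log2 fold change (log2FC, L-RFI against H-RFI) of 1.23 with a standard error of 0.43 in KC, and without F10 this value was 0.66. Leaving out each other KC steer gave values from 1.0 (without F1) to 1.45 (without F16). PM20D1 had a log2FC of 1.11 with a standard error of 0.22 in ANG, and 0.99 to 1.23 without each of its steers. The value of PDK4 thus depended on F10, while no steer of ANG moved that of PM20D1 by more than its standard error.

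In the breeds that did not select it, PDK4 did not differ between RFI groups beyond the spread of the steers. Its log2FC in ANG was 0.50 with a standard error of 0.25 and a 95% interval from -0.05 to 1.05, which spans no change and a doubling in L-RFI steers (FDR = 0.994 over all 13613 genes by edgeR's quasi-likelihood test, unadjusted p = 0.0703, exact permutation p = 0.114). At an unadjusted p under 0.05, the test passed 5.04% of the genes of ANG, and PDK4 was not among them. The log2FC was 0.32 without F21, 0.69 without F20 (unadjusted p = 0.0186, FDR = 1, edgeR), and 0.63 without F23 (unadjusted p = 0.0276, FDR = 0.768). In CHAR the log2FC was -0.19 with a standard error of 0.42 and an interval from -1.17 to 0.79 (FDR = 0.985, exact permutation p = 1). This sign rested on single H-RFI steers, as the log2FC was 0.01 without F36 and 0.09 without F43. Without F48, the H-RFI steer at 483 CPM, the log2FC was -0.58 (unadjusted p = 0.015, FDR = 0.895, edgeR). A 3 against 3 comparison cannot reach an exact permutation p below 0.1.

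Over ANG and CHAR together, with the breed as a term, the log2FC of PDK4 was 0.20 with a standard error of 0.26 (interval -0.36 to 0.76, FDR = 0.998, edgeR). It was 0.08 without F21 or F48 and 0.35 without F43. The difference between its RFI effects in the 2 breeds was -0.70 (CHAR minus ANG, interval -1.80 to 0.40, FDR = 0.962), so a difference was not detectable with these steers. At an unadjusted p under 0.05, 4.64% of genes passed in the fit of ANG and CHAR, and PDK4, at 0.449, did not. The difference of KC from these breeds was not tested, because KC had selected the gene.

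PM20D1 was higher on average in L-RFI steers of the breeds that had not selected it, by amounts smaller than the spread. In CHAR its log2FC was 0.37 with a standard error of 0.31 (interval -0.34 to 1.07, FDR = 0.971, edgeR, exact permutation p = 0.3). The value was 0.79 without F36, the high H-RFI steer, and between 0.17 and 0.47 without each other steer. CHAR had 4.63% of its genes at an unadjusted p under 0.05, and PM20D1, at 0.267, was not one of them. ACTG2 and DES, genes of smooth muscle, were higher on average in the L-RFI steers of CHAR, with a sum of 24.3 to 67.6 CPM in H-RFI and 57.2 to 348 CPM in L-RFI steers, highest in F33. The groups overlapped in this sum. Both genes had been selected as up-regulated in CHAR. They are 2 of 5 markers listed, and their part in the CHAR values of PDK4 and PM20D1 was not tested.

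In KC the log2FC of PM20D1 was 0.43 with a standard error of 0.52 (interval -0.73 to 1.59, FDR = 0.698, edgeR, exact permutation p = 0.657). It turned to -0.18 without F11. F11 also stood apart in 2 markers of skeletal muscle, TTN (titin) and NEB (nebulin), which summed to 2563 CPM in F11 and to 55.6 to 276 CPM in the 21 other steers. Only 2 of the 12 muscle markers listed could be matched to the table, and the part of muscle tissue in the PM20D1 level of F11 was not tested. The L-RFI steers of KC further had a smaller share of their uniquely aligned reads on genes, at 38.0% ± 0.572 against 40.3% ± 0.818 (SD, n = 4 each). In CHAR the share was also smaller on average in L-RFI steers, at 36.2% ± 1.76 against 38.8% ± 1.44 (SD, n = 3 each). In ANG it was 40.7% in L-RFI and 40.0% in H-RFI steers. The part of these differences was not tested either. KC had 18.2% of its genes at an unadjusted p under 0.05, against which PM20D1, at 0.427, did not stand out. At an FDR below 0.1, 1 of the 13725 genes tested in KC passed (0.00729%, edgeR).

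Over CHAR and KC together the log2FC of PM20D1 was 0.40 with a standard error of 0.35 (interval -0.33 to 1.14, FDR = 0.577, unadjusted p = 0.261, edgeR), in a fit where 17.3% of genes had an unadjusted p under 0.05. It was 0.09 without F11 and 0.60 without F9. Its RFI effects in the 2 breeds differed by 0.07 (KC minus CHAR, interval -1.48 to 1.61, FDR = 0.994), an interval that leaves room for differences in both directions.

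**Figure D2:**
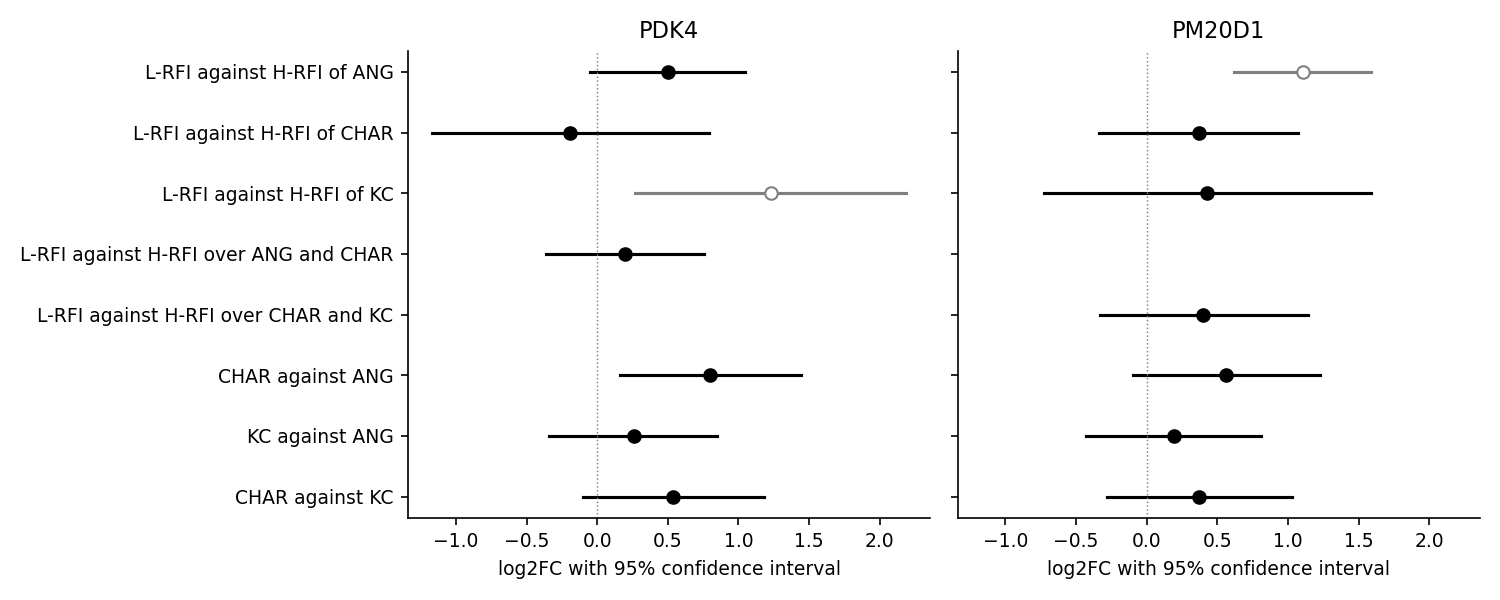
Log2FC (points) and 95% confidence intervals (lines) of PDK4 (left) and PM20D1 (right) for each contrast of RFI groups or breeds, from edgeR's quasi-likelihood fit. Open grey points mark the contrasts that selected the genes (1.23 for PDK4 in KC and 1.11 for PM20D1 in ANG), and of the other intervals only that of PDK4 in CHAR against ANG, from 0.16 to 1.44, leaves out 0.

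With RFIfat itself as a number in place of the groups, the contrasts within a breed also stayed above the FDR limit. Turned so that a positive value means more transcript in efficient steers, PDK4 changed by 0.20 on the log2 scale per kg of RFIfat in ANG and by -0.13 in CHAR, and PM20D1 by 0.24 in CHAR and 0.02 in KC (FDR from 0.976 to 0.999, edgeR). In that order the unadjusted p was 0.123, 0.567, 0.185 and 0.916. The steer with the most PDK4, F10, had a RFIfat of -1.59 kg, whereas F14, at -1.77 kg, was at 761 CPM. The most PM20D1 was found in F11, the least extreme L-RFI steer of KC at -0.80 kg, and the H-RFI steer with the highest RFIfat of all, F9 at 2.03 kg, had the most PM20D1 of its group.

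**Figure D3:**
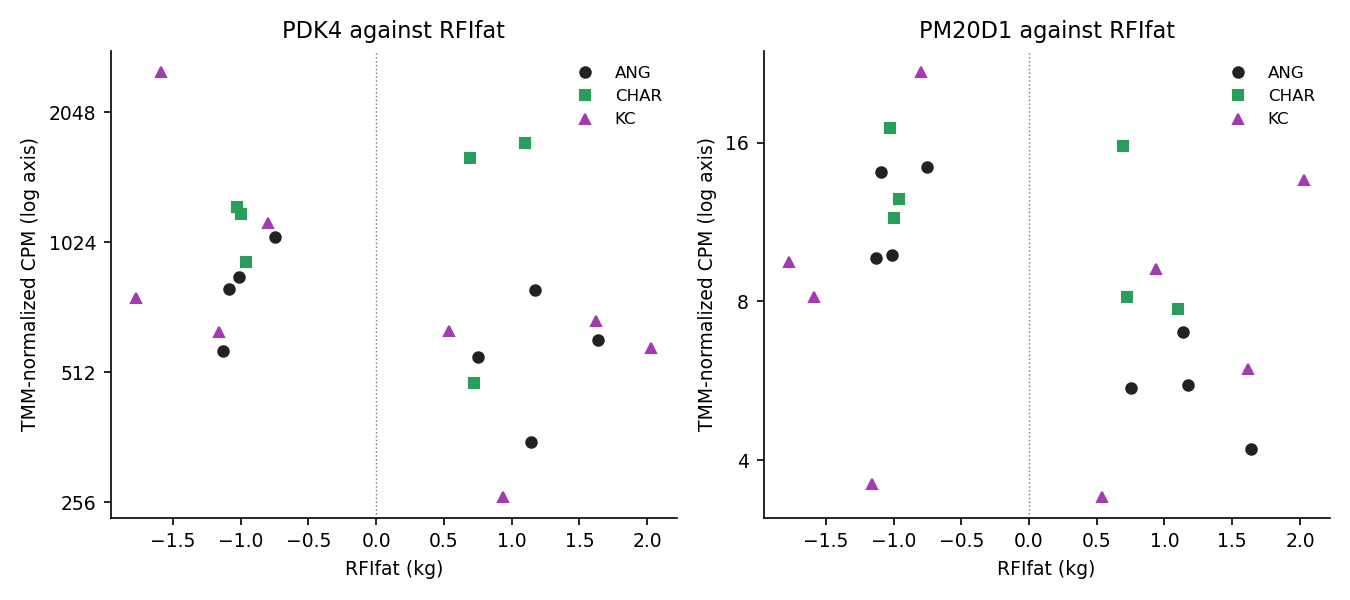
TMM-normalized CPM (vertical axis, log scale) of PDK4 (left) and PM20D1 (right) against RFIfat in kg (horizontal axis), 1 point per steer, with breeds by colour and shape and a dotted line at 0. No steer lies between -0.75 and 0.54 kg, and the KC steers cover 264 to 2541 CPM of PDK4 and 3.41 to 21.8 CPM of PM20D1.

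Between breeds, with H-RFI and L-RFI steers given equal weight, PDK4 was highest in CHAR. The 6 CHAR steers were at 483 to 1739 CPM (median 1213) and the 8 ANG steers at 354 to 1056 CPM (median 701), a log2FC of 0.80 with a standard error of 0.31 and an interval from 0.16 to 1.44. The unadjusted p was 0.0174 and the FDR 0.255 by edgeR's quasi-likelihood test, and the exact permutation p within RFI groups was 0.04. The log2FC was 1.14 among H-RFI steers (unadjusted p = 0.0179, FDR = 0.552, edgeR) and 0.45 among L-RFI steers (unadjusted p = 0.274, FDR = 0.712). Without F43 it was 0.65 (unadjusted p = 0.0582, edgeR). CHAR steers also had on average a lower share of uniquely aligned reads on genes, with overlapping ranges, at 38.8% ± 1.44 in H-RFI and 36.2% ± 1.76 in L-RFI (SD, n = 3 each) against 40.0% ± 1.16 and 40.7% ± 1.44 in ANG (SD, n = 4 each), and its part in the contrast was not tested. At an unadjusted p under 0.05 this contrast passed 13.8% of the 14048 genes, and at an FDR below 0.1 it passed 1.21%, without PDK4. This permutation p is not adjusted for the 6 contrasts of breeds made for these genes.

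Against KC, at 264 to 2541 CPM (median 655), the log2FC of PDK4 in CHAR was 0.54 with a standard error of 0.31 (interval -0.10 to 1.18, FDR = 0.265, edgeR, exact permutation p = 0.198). CHAR and KC differed in 16.8% of all genes at an FDR below 0.1. The log2FC was 1.25 among H-RFI steers and -0.17 among L-RFI steers, a gap that holds the RFI contrast of KC by which the gene was selected and that was therefore not tested. The contrast passed an FDR below 0.1 without F10 (0.83, FDR = 0.064) or without F48 (0.74, FDR = 0.0992). KC differed from ANG by 0.26 with a standard error of 0.29 (interval -0.34 to 0.85, FDR = 0.642), where 5.66% of genes were called, and this turned to -0.03 without F10.

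PM20D1 was at 7.73 to 17.1 CPM (median 12.0) in CHAR, 4.20 to 14.4 CPM (median 8.33) in ANG and 3.41 to 21.8 CPM (median 8.69) in KC. CHAR exceeded ANG by a log2FC of 0.56 with a standard error of 0.32 (interval -0.10 to 1.23, unadjusted p = 0.09, FDR = 0.443, edgeR). The exact permutation p, not adjusted for the 6 contrasts, was 0.0229. The value was 0.35 without F36. The log2FC was 0.94 among H-RFI and 0.19 among L-RFI steers, a gap that holds the RFI contrast of ANG by which the gene was selected and that was not tested. CHAR exceeded KC by 0.37 with a standard error of 0.31 (FDR = 0.463), with 0.16 without F36 and 0.68 without F11 (FDR = 0.123) as the ends of the range over steers left out. KC exceeded ANG by 0.19 with a standard error of 0.30 (FDR = 0.752), a value that fell to -0.11 without F11. No contrast of breeds thus separated PM20D1 by the FDR.

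Within a group, the steers rich in 1 of the genes were not generally rich in the other. F18 in ANG L-RFI and F46 in CHAR L-RFI had the highest level of both genes in their groups. F23 in ANG L-RFI and F16 in KC L-RFI had the lowest of both. In contrast, F10 had by far the most PDK4 and only 8.16 CPM of PM20D1, and F1 had the least PDK4 and 9.22 CPM of PM20D1. With log2(CPM + 1) centred within the 6 groups, Pearson's r over the 22 steers was 0.11 (permutation p = 0.621) and Spearman's rho 0.03 (permutation p = 0.884, both 2-sided with 100000 resamples). Without F10 and F48, the 2 steers farthest from the median of PDK4, r was 0.11 (permutation p = 0.631), and without F16 it was -0.10.

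**Figure D4:**
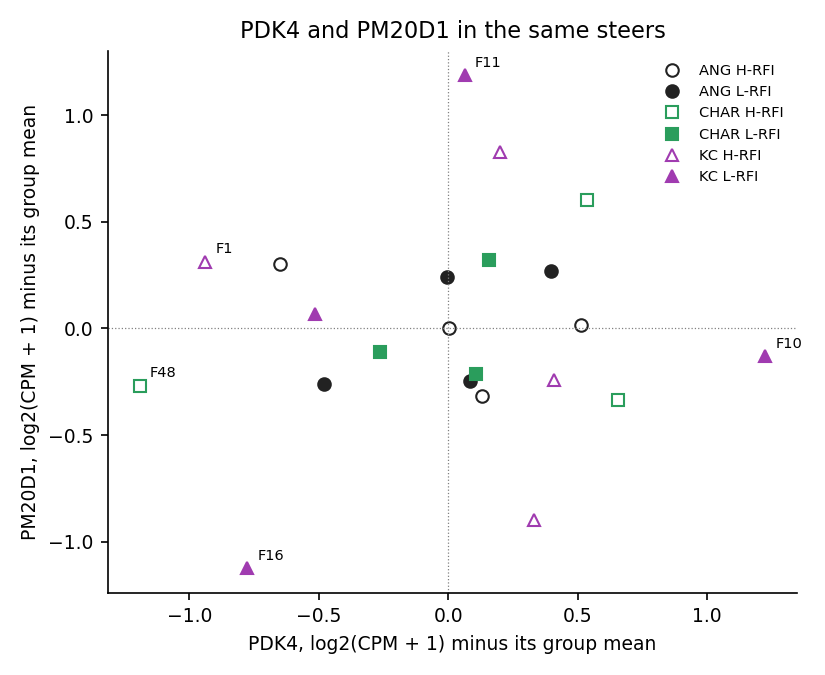
PDK4 (horizontal) against PM20D1 (vertical) in the 22 steers, each as log2(CPM + 1) minus the mean of the steer's own breed and RFI group, with breeds by colour and shape and L-RFI steers filled. The points form no line (r = 0.11), and 5 steers named in the text are marked.

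Genes whose levels went up and down with those of PDK4 across steers were ranked by Pearson's r of the centred values, over 13605 genes. This is a description, since the 22 values share library depth and normalization. For PDK4, 64 genes had r of at least 0.7 and 30 had r of at most -0.7, for PM20D1 22 and 24. A symbol was at hand for 222 of the genes, all of which the study had selected as DE in 1 of the breeds on these steers, so the names that follow are drawn from that selection and not from the whole table.

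The named gene closest to PDK4 was CHRNA1, the alpha subunit of the muscle-type acetylcholine receptor, with r = 0.66. Of the 13605 genes, 113 had a higher r than CHRNA1. FAM13A, a gene expressed in adipocytes, followed with r = 0.59, and G0S2, which inhibits the triglyceride lipase of fat cells, with r = 0.57. LIN9, SLC10A6, CITED2, ZDBF2 and WIPF3 had r from 0.49 to 0.55, where 456 (LIN9) to 800 (WIPF3) genes had a higher r. All of these 8 genes but G0S2 had been selected as up-regulated in L-RFI steers of KC, as PDK4 had, and G0S2 as down-regulated there. The share of such genes among all named genes was not counted here, so nothing is read from this. In G0S2 the within-group relation to PDK4 was thus positive while its group difference in KC was opposite, at 204 ± 145 CPM in H-RFI and 67.9 ± 28.4 CPM in L-RFI steers (SD, n = 4 each).

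Opposite to PDK4 were ATG10 (r = -0.76), an enzyme of autophagosome formation, HDC (r = -0.69), which makes histamine, TPSB2 (r = -0.67), a tryptase, and METRNL (r = -0.66), a secreted factor of adipose tissue. ATG10 kept r between -0.81 and -0.73 when each steer was left out, and only 4 of the 13605 genes had a lower r. HDC and TPSB2 are both known from mast cells, and both had been selected as down-regulated in L-RFI steers of ANG. HDC was at 6.06 ± 2.28 CPM in H-RFI and 1.62 ± 1.18 CPM in L-RFI steers of ANG (SD, n = 4 each), and TPSB2 at 28.3 ± 11.6 and 9.75 ± 7.29 CPM. These differences belong to that selection. The log2FC of HDC was -1.11 in CHAR and -0.62 in KC, and that of TPSB2 -1.33 and -0.57 (unadjusted p from 0.0795 to 0.255, edgeR). The share of mast cells in the samples, and its part in the PDK4 levels, was not tested.

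Closest to PM20D1 were SESN1, a stress-induced sestrin, and WNK4, a kinase that controls salt transporters, both with r = 0.71, then COX8B, a subunit of cytochrome c oxidase, with r = 0.67, and NEB with r = 0.65. Without F11, the steer high in muscle markers, r was 0.60 for SESN1, 0.66 for WNK4, 0.58 for COX8B and 0.46 for NEB. FREM1, FAM13A, ABCA1 and RELN had r from 0.49 to 0.55, where 266 (FREM1) to 552 (RELN) genes had a higher r. FAM13A was the only named gene in the upper list of both PDK4 and PM20D1. At the other end stood SERTAD1 (r = -0.77), GNAT1 (r = -0.74), THBD, the thrombin receptor thrombomodulin (r = -0.72), and PHLDB3 (r = -0.69). Spearman's rho was smaller in size than Pearson's r for most of these genes, as for SESN1 (0.46), NEB (0.41), GNAT1 (-0.57) and PHLDB3 (-0.47).

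**Figure D5:**
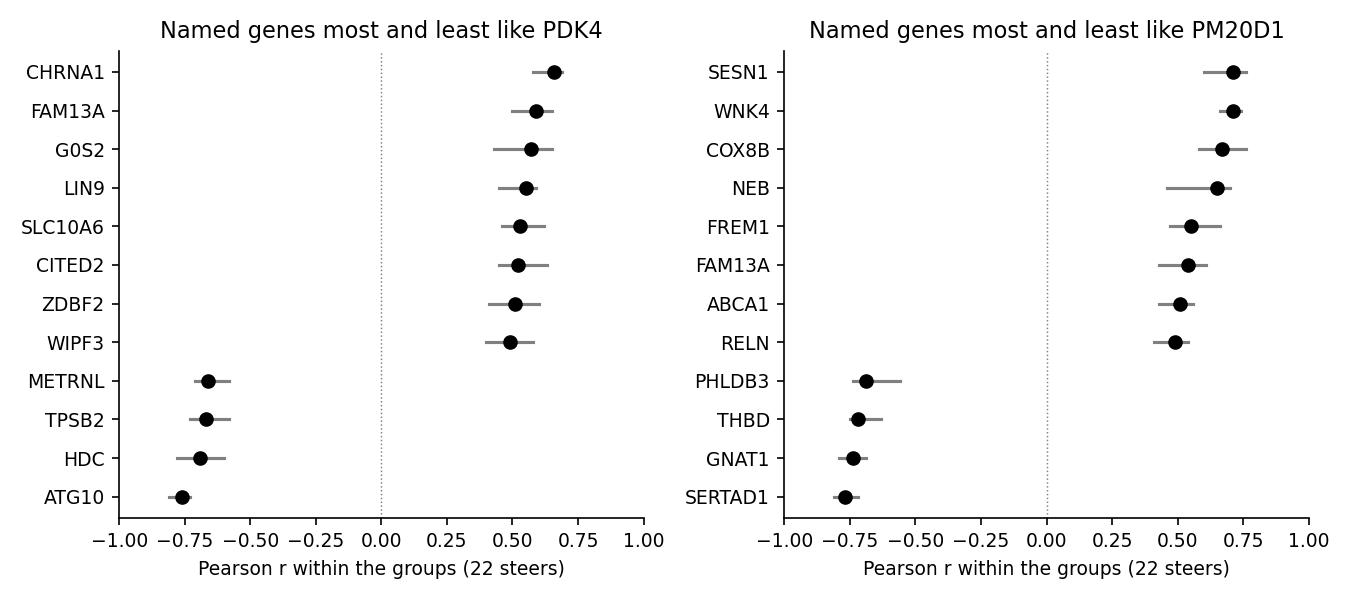
Pearson's r (points, horizontal axis) of the centred levels of the 8 most and 4 least similar named genes with PDK4 (left) and PM20D1 (right) over the 22 steers, with lines for the range of r when each steer is left out. The lines stay on 1 side of 0. The line of WIPF3 with PDK4 comes nearest to 0, at 0.4, and that of NEB with PM20D1 reaches down to 0.46.

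The other genes that the study listed under the same upstream regulators, functions or annotation terms as PDK4 and PM20D1 were read in the breeds whose calls had not made the list. Of 9 targets of insulin beside PDK4, 8 had a negative and 1 a positive log2FC in KC at an unadjusted p under 0.05, beside 9.34% and 8.9% of all genes, a split that their selection there fixes. In ANG 0 of the 9 were higher and 1 was lower at this level, beside 1.90% and 3.14% of all genes. In CHAR 1 was higher and 1 lower, beside 2.42% and 2.21%. None of the 9 had an FDR below 0.1 in either breed (edgeR), as was true of all genes tested there (0%), and their median log2FC was -0.05 in ANG and -0.30 in CHAR, where the median of all genes lay within 0.01 of 0.

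SLC2A1, the glucose transporter GLUT1, had a log2FC of -1.71 in ANG (standard error 0.77, unadjusted p = 0.0519, FDR = 0.979, edgeR) and -2.63 in CHAR (standard error 1.08, unadjusted p = 0.0422, FDR = 0.948). H-RFI steers ranged from 22.9 to 232 CPM in ANG and from 8.83 to 271 CPM in CHAR, and L-RFI steers from 15.2 to 68.7 and from 12.7 to 21.5 CPM, so the groups overlapped in both breeds. SLC7A1, an importer of cationic amino acids, had a log2FC of -0.80 in ANG (unadjusted p = 0.0231, FDR = 0.94, edgeR). SREBF1, a transcription factor of lipid synthesis, had a log2FC of 0.55 in CHAR (unadjusted p = 0.0343, FDR = 0.948) and -1.14 in KC, and was at 181 ± 48.6 CPM in H-RFI and 266 ± 40.5 CPM in L-RFI steers of CHAR (SD, n = 3 each).

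Among 8 genes of triacylglycerol concentration, 1 was higher and 0 lower in ANG and 1 higher and 0 lower of 7 tested in CHAR at an unadjusted p under 0.05, beside the 1.9% and 3.14% of all genes in ANG and the 2.42% and 2.21% in CHAR. Of 3 carriers of the mitochondrial inner membrane, SLC25A1, the citrate carrier, had a log2FC of 0.61 in ANG (unadjusted p = 0.0495, FDR = 0.979, edgeR) and SLC25A22, a glutamate carrier, -0.66 in CHAR (unadjusted p = 0.00665, FDR = 0.948). Of 7 targets of SIRT1 or PPIF, 1 was higher and 0 lower in ANG, and 2 were higher and 1 lower of 6 tested in CHAR, beside the same shares of all genes. No member of the groups had an FDR below 0.1 in ANG or CHAR.

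PM20D1 shared the annotation terms of extracellular space or proteolysis with BMP7, CFB, CPAMD8, PLAU, PTHLH, SFRP4 and WNT2 in the study's lists. All 7 had been selected as lower in L-RFI steers of ANG, against the direction of PM20D1. Most DE genes that the study called in ANG were lower in L-RFI steers, so nothing is read from this shared direction. PLAU had been selected in CHAR as well. Of the 6 others, 0 were lower or higher in CHAR at an unadjusted p under 0.05, beside 2.21% and 2.42% of all genes, and in KC 1 of the 7 was lower and 0 higher, beside 9.34% and 8.9%. PLAU, the urokinase plasminogen activator, is described only for CHAR, at 59.9 ± 38.7 CPM in H-RFI and 20.9 ± 2.80 CPM in L-RFI steers (SD, n = 3 each, log2FC -1.51). WNT2, a secreted signal, was the one in KC, with a log2FC of -0.77 (unadjusted p = 0.0304, FDR = 0.224). The median log2FC was -0.08 over the 6 genes in CHAR and -0.44 over the 7 in KC.

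CIDEA and COX8B, both known from thermogenic fat, were the only 2 of 13 listed thermogenic genes with a symbol at hand. COX8B was at 14.6 ± 3.79 CPM in H-RFI and 5.81 ± 1.64 CPM in L-RFI steers of CHAR (SD, n = 3 each). Its log2FC there was -1.33 (standard error 0.27), given as a description only, because the study had selected it in this breed. In ANG, the breed that had selected PM20D1, the log2FC was 0.65 for COX8B (standard error 0.44, unadjusted p = 0.164, FDR = 0.994, edgeR). For CIDEA it was -0.05 (standard error 0.44, unadjusted p = 0.919). The kinases and phosphatases of the pyruvate dehydrogenase complex, the genes of fatty acid oxidation, the PPAR targets, the other M20 peptidases and the markers of adipocytes were not analysed here, as no table at hand pairs their identifiers with symbols.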

How the data were processed

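RNA-Seq of subcutaneous adipose tissue from 22 steers was analysed. The authors depleted ribosomal RNA, sequenced stranded libraries as paired reads, trimmed and aligned them to UMD3.1 with TopHat2 (2.0.9), used SAMtools (1.1), counted reads per Ensembl gene with HTSeq (0.6.1) and deposited the counts without normalization. The annotation version and strand setting of the counting are not given in the sources used here. In the RefSeq annotation of ARS-UCD2.0, 0 other genes overlap PDK4 or PM20D1. Symbols of other genes were taken from the study's list of DE genes, which matched 14 of the 154 genes of the lists made here. Some genes are not reported by name.

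PDK4, PM20D1 and the lists were chosen with earlier results of these data known. The RFI groups of a breed were set against each other by edgeR's quasi-likelihood test (R 4.3.3, edgeR 4.0.16, limma 3.58.1) after TMM normalization. Genes entered when 50% or more of a breed's steers exceeded 1 CPM, with Benjamini-Hochberg FDR over all of them and a limit of 0.1. Breeds were contrasted in a fit of all 6 groups. Exact permutation tests (2-sided) used log2 TMM CPM and, over several groups, permuted within them, with smallest p of 0.0286 for 4 against 4 steers. Steers are separate animals. The study names different birth years and sires, which were not assigned to the steers in the labels, so no batch term was fitted. Named genes were the 8 highest and 4 lowest by centred r among genes with a symbol, and members of the lists. The fits were tested on simulated data. Alternatives were DESeq2 1.42.0, RLE factors, no low-count filter, other edgeR tests, RFIfat as regressor, subsets, and leaving out each steer. Other steps used scipy 1.17.1, pandas 2.3.3, numpy 2.4.6 and matplotlib 3.10.9 under python 3.11.15. Intervals are at 95% and floors at 3 counts, the latter for counting error only.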

Additional observations from a re-analysis of the deposited data

Results flagged for a closer look

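PDK4 in the H-RFI steer F1 of KC, at 264 CPM, was set apart from the other 3 steers of its group (583 to 672 CPM). On the log2 scale its gap to the nearest steer was 0.848 of the range of the group, above Dixon's 95% critical value of 0.829 for 4 steers, and on the linear scale it was 0.782. The group is 1 side of the contrast by which PDK4 was selected, so the gap is a description and supports nothing. Both ends of the 8 gene and group combinations were examined on 2 scales, 32 ratios in all, and since chance alone flags about 1 group in 20 on a single scale, a flag on either scale comes up more often than that. F1 had the highest share of reads on genes among the KC steers (41.4%) and the highest marker sums of its group, at 276 CPM for TTN and NEB (64.7 to 124 CPM in the others) and 133 CPM for ACTG2 and DES (44.3 to 62.8 CPM). Their part in its PDK4 level was not tested.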

How the results depend on the processing

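By edgeR's quasi-likelihood test 0 of the 12 tested contrasts had an FDR below 0.1 and 1, PDK4 in CHAR against ANG, an unadjusted p under 0.05. DESeq2 gave 0 and 2. Of 69 alternatives other than leaving out a steer, 66 kept both direction and call. The 3 others reversed: PDK4 in KC against ANG was -0.11 among H-RFI steers, PDK4 in CHAR against KC -0.17 and PM20D1 in KC against ANG -0.15 among L-RFI steers. Each splits by RFI a breed whose RFI contrast had selected the gene, so these signs partly restate the selection. Without each steer in turn, PDK4 in CHAR against KC ranged from 0.40 to 0.83 and was called without F10 or F48. PDK4 in L-RFI against H-RFI of CHAR ranged from -0.58 to 0.09, PM20D1 in L-RFI against H-RFI of KC from -0.18 to 0.81, PDK4 in KC against ANG from -0.03 to 0.37, PM20D1 in KC against ANG from -0.11 to 0.33, and r of PDK4 with PM20D1 from -0.10 to 0.20. Without centring, r was 0.36 (permutation p = 0.0956) and rho 0.47 (permutation p = 0.0274). For PDK4 in ANG, the unadjusted p was 0.036 in the exact test of edgeR and 0.0471 in DESeq2. The contrast that selected PDK4 ranged from 0.66 to 1.45 and that of PM20D1 from 0.99 to 1.23, chosen after seeing the data and without a test. No paired analysis was possible because every steer carries its own number. The 3 or 4 steers a group limit the precision of the RFI contrasts, and the 31 to 231 counts of PM20D1 add counting error.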
